A study of Homo sapiens with 7 samples.

Results

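The comparison described here is between human HSC-3 cells collected directly after 90 min at 44 °C and the same cells collected directly after 90 min at 42 °C, which the study times as 0 h of recovery. It uses 2 of the 7 arrays of the series, chosen by their labelled temperature and time. HSC-3 is an established line from an oral squamous carcinoma of the tongue. The other arrays hold untreated control cells kept at 37 °C and cells returned to 37 °C for 6 or 12 h after either temperature. Each condition is represented by total RNA on 1 Affymetrix U133 Plus 2.0 array. A difference below therefore sets a pair of arrays side by side, with no estimate of the spread between cultures and no p-value.

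Cells that meet damaging heat release the transcription factor HSF1, which binds heat shock elements in promoters and induces chaperones that hold or refold unfolding proteins. The same stress can act on other programmes, among them the immediate early genes, which code for short-lived transcription factors, and the NF-kB targets, which code for cytokines, chemokines and the inhibitors that end the NF-kB response. The comparison asks in which genes the hotter treatment left a different transcript level from the milder one.

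Immediately after heat, the 44 °C array read lower than the 42 °C array for single inducible chaperones (HSPA6, HSPB1, DNAJB4) and for HERPUD1 and DNAJB9, which were 2 of 18 measured genes of the endoplasmic reticulum stress response (0.658% of all genes were lower). It read higher for 8 of 15 NF-kB chemokines and cytokines, TNF and IL1A among them (3.11% of all genes were higher), for FOS and FOSB, and for ID2, RASD1 and the histone gene H2AC17. For TNF and IL1A the 42 °C level was below that of unheated cells as deposited, after quantile normalization and when scaled to polyadenylated controls. The labels do not say whether these controls were added. For both cytokines the place of the 44 °C level beside unheated cells depended on the scaling. Scaled to the polyadenylated controls, FOS and the called cytokines and chemokines other than TNF and IL1A did not keep a 2-fold difference. In this text a gene is called higher or lower only if the arrays differed by at least 2-fold under 3 scalings, which are the deposited intensities, quantile normalization and a shift of each array by its median. Intensities under a floor of 21.35 units, the median of all arrays pooled, were raised to it, and a fold with 1 array at the floor is given as at least that size.

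By this rule, 430 of the 13840 genes that reached the floor on either array were higher at 44 °C (3.11%) and 91 were lower (0.658%). Among the 9384 bright genes, those of at least 85.4 units on 1 of the arrays, 332 were higher (3.54%) and 56 lower (0.597%). The rule does not treat the directions alike, because the 44 °C array was the brighter one: its median probe set read 32.1 units against 18.7 at 42 °C, and the median difference over all genes was 0.58 log2 units as deposited, 0.04 with quantile normalization and 0.07 with the median shift. A gene had to go against that level to count as lower. As deposited, 2616 genes (18.9%) were at least 2-fold higher and 91 (0.658%) lower, so that 96.6% of the differing genes were higher. Quantile normalization gave 452 higher (3.27%) and 470 lower (3.4%), a share of 49.0% higher. The median shift gave 559 higher (4.04%) and 402 lower (2.9%), a share of 58.2% higher.

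Probe sets for control transcripts gave a further scale. The bacterial transcripts dap, lys, phe and thr serve on these arrays as polyadenylated controls that can be added to the RNA before labelling; the labels do not say whether or how they were added. Of their 24 probe sets, 23 were above the floor on both arrays, and all 23 read at least 2-fold more on the 44 °C array (median 1.31 log2 units, range 1.05 to 2.07). The controls for hybridisation, meant to be added later, differed by a median of 0.04 over 18 probe sets (range -0.34 to 0.42). When the arrays were instead scaled to the polyadenylated controls, the median of all genes was -0.61, and 72 genes (0.52%) were at least 2-fold higher against 3227 (23.3%) lower, a share of 2.18% higher. On that scale 72 of the 430 higher genes and all 91 lower genes still passed 2-fold. The lower genes could not fail, because this scale only moves the hotter array further down against the milder one. Their retention therefore tests nothing. Of the 37 named higher genes only 16 kept a 2-fold difference on this scale, among them TNF, IL1A, ID2, RASD1, FOSB and H2AC17. All 37 kept their sign. This was fixed in advance, because a call already required a larger difference as deposited than this scale takes away. A level of transcripts per cell that differed between the treatments cannot be told apart from an array effect here, and in bulk RNA fewer cells with a transcript cannot be told apart from less of it per cell.

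**Figure D1:**
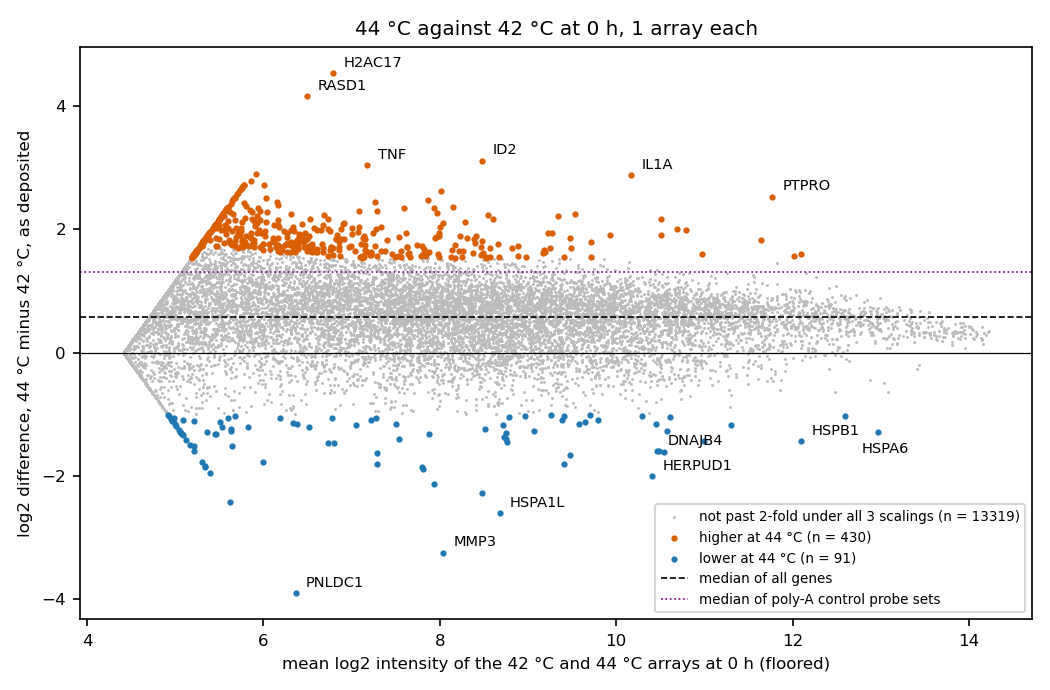
Each point is 1 of 13840 genes, with the mean log2 intensity of the 42 °C and 44 °C arrays at 0 h on the x axis and the log2 difference, 44 °C minus 42 °C, as deposited, on the y axis. Orange points are the 430 higher and blue points the 91 lower genes, the dashed line is the median of all genes (0.58) and the dotted line the median of the polyadenylated controls (1.31); most of the orange points would lie under 2-fold if the dotted line were taken as 0.

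The ratio of 3' to 5' probe sets, which rises as RNA degrades, was 0.915 at 42 °C and 0.875 at 44 °C for GAPDH and 1.26 and 1.29 for ACTB. The 5' control probe set of 28S ribosomal RNA read 463 on the control array, 7379 at 42 °C and 19746 at 44 °C; its part in the results was not tested. All 5 squamous epithelial markers with a probe set of their own (KRT5, KRT14, CDH1, EPCAM, ITGB4) were above the floor on every array, with summed intensities of 24364 at 42 °C and 34006 at 44 °C. Of 6 fibroblast markers, 1 was above the floor at 42 °C and 4 at 44 °C (sums 307 and 419.5 units), of 4 leukocyte markers 1 and 0 (sums 56.4 and 53.3), and of 5 endothelial markers 1 and 1 (sums 44.4 and 91.0). Among bright genes with at least a pair of probe sets, the probe sets of 1 gene disagreed about the difference with an SD of 0.373 log2 units, a scatter that holds no difference between cultures.

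The HSP70 chaperones bind unfolded stretches of protein and are released from them by ATP. HSPA6, which is made almost only under stress, read 4.82 on the control array, 12566 after 42 °C and 5143 after 44 °C, in the deposited intensity units used throughout. The 44 °C level was 2.44-fold lower than the 42 °C level, while the control was below the floor. HSPA1L, another HSP70, read 36.1 on the control array, 1008 after 42 °C and 167 after 44 °C, 6.05-fold lower at 44 °C. A second probe set of HSPA1L went the other way, with 8.03, 30.1 and 769 units on the same arrays, so the direction of this gene is not settled. HSPH1, an HSP110 that exchanges the nucleotide of HSP70, read 4976 on the control array, 10751 after 42 °C and 6951 after 44 °C; its difference of -0.63 as deposited and -1.08 after quantile normalization did not pass 2-fold under all scalings. Of the 10 measured members of the HSP70 and HSP110 list, HSPA6 and, by its probe set of higher mean, HSPA1L were lower and 0 were higher. The list held 13 genes. HSPA1A, HSPA1B and HSPA8 had no probe set that lists a single gene, so they were not measured. Of all genes 0.658% were lower and 3.11% higher. The list median was 0.10 log2 units as deposited, which is -0.48 relative to the median of all genes.

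The HSP40 proteins deliver clients to HSP70. DNAJB4 read 264 on the control array, 2453 after 42 °C and 809 after 44 °C, which is 3.03-fold lower at 44 °C, and its other probe set had the same sign. DNAJB1, the main inducible HSP40, read 881 on the control array, 9949 after 42 °C and 7110.0 after 44 °C, a difference of -0.48 that did not pass. The other probe set of DNAJB1 read 677, 8563 and 3740 on the same arrays, a difference of -1.19. With the mean of its probe sets DNAJB1 was -0.84. In both DNAJB1 and DNAJB4 the 44 °C array lay between the control and the 42 °C array. Of 12 measured HSP40 cochaperones DNAJB4 alone was called, where 0.658% of all genes were lower and 3.11% higher. The list median was 0.09 as deposited, or -0.49 relative to all genes.

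Small heat shock proteins hold unfolding proteins without using ATP. HSPB1, the most abundant of them in many cells, read 1116 on the control array, 7209 after 42 °C and 2664 after 44 °C and was 2.71-fold lower at 44 °C. HSPB8, which acts with BAG3 in selective autophagy, read 80.8 on the control array, 513 after 42 °C and 117 after 44 °C and was 4.40-fold lower, but its second probe set read 43.9 at 42 °C and 114 at 44 °C, the opposite direction. With the mean of both probe sets its difference was -0.38. CRYAB read 28.6 on the control array, 71.5 after 42 °C and 38.8 after 44 °C, with a difference of -0.88 as deposited and -1.65 after quantile normalization. Of 5 measured members 2 were lower and 0 higher (0.658% and 3.11% of all genes were). The median was -1.46 relative to all genes, the lowest of the lists of 5 or more genes. With the mean of all probe sets of each gene this value was -0.83.

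The HSP90 machinery gave no call. None of the 14 measured HSP90 genes and cochaperones was higher or lower, and their median was -0.32 relative to all genes as deposited and -0.13 after quantile normalization. BAG3, which links HSP70 to autophagy, read 1816 on the control array, 7118 after 42 °C and 4602 after 44 °C, a difference of -0.63. HSF1 itself read 242 on the control array, 302 after 42 °C and 413 after 44 °C, a difference of 0.45 that lies close to that of all genes. No member of the mitochondrial chaperone list (12 measured) or of the TRiC chaperonin, which folds actin and tubulin (7 measured), was called. Only 3.11% of all genes were higher and 0.658% lower, so no call in lists of these sizes says little.

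**Figure D2:**
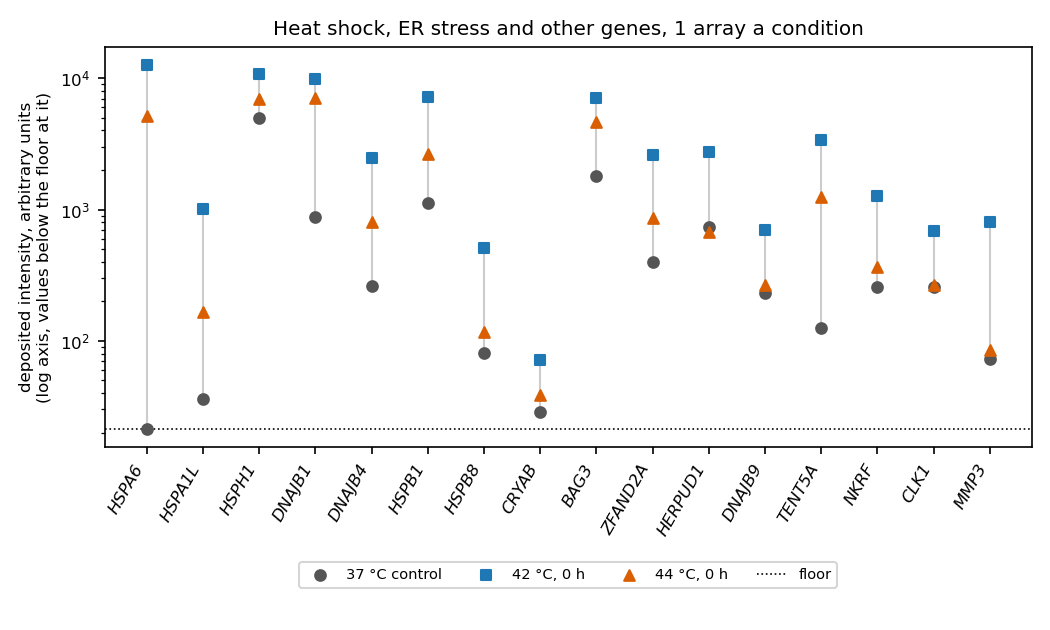
Deposited intensity in arbitrary units (log axis) of 16 named genes on the control, 42 °C and 44 °C arrays at 0 h, 1 array a condition, with values below the floor drawn at it (dotted line). In each gene the 42 °C point is the highest. For HERPUD1, CLK1 and MMP3 the 44 °C point lies near the control as deposited; scaled to the polyadenylated controls it would be -1.02, -0.84 and -0.66 log2 units from it.

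Genes that answer to protein damage in the cytosol or the endoplasmic reticulum were among the lower ones too. ZFAND2A, a zinc finger protein that binds the proteasome and is induced by heat and arsenite, read 400.1 on the control array, 2613 after 42 °C and 856 after 44 °C and was 3.05-fold lower at 44 °C. HERPUD1, part of the machinery that clears misfolded proteins from the endoplasmic reticulum, read 742 on the control array, 2728 after 42 °C and 679 after 44 °C, 4.02-fold lower. DNAJB9, an HSP40 of the endoplasmic reticulum, read 233 on the control array, 696 after 42 °C and 265 after 44 °C, 2.63-fold lower. Its other probe sets differed by -0.16 and -1.52 log2 units, and the mean of its probe sets by -1.025. As deposited, the 44 °C level of both endoplasmic reticulum genes was within 1.14-fold of the control; scaled to the polyadenylated controls it was -1.02 and -0.70 log2 units from it. They were the only called members among 18 of the unfolded protein response list, whose median was 0.24 as deposited, or -0.34 relative to all genes. Of all genes 0.658% were lower. The central chaperone of that response, HSPA5, read 11818 and 10282 at the 2 temperatures.

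Promoter sequences of the lower genes were searched because HSF1 acts through a short repeated element. The window ran from 250 bases before to 50 bases after the annotated start in the RefSeq promoter table (build GRCh38.p14), and both strands were covered. A pair of facing units, GAANNTTC or TTCNNGAA, was present in 12 of 44 bright lower genes with a promoter entry (27.3%), in 29 of 258 bright higher genes (11.2%), in 10.0% of all bright genes and in 13.7% of the 27305 promoters used. The 12 genes were HSPA6, HSPA1L, HSPB1, HSPB8, ZFAND2A, SERPINH1, IER5, NKRF, EOMES, IL7R, MDFIC and NTN4. They include HSPA1L and HSPB8, which count as lower by 1 probe set while another went the other way. A run of 3 facing units, in which that pair is contained, was present in HSPA6 and SERPINH1, 2 of the 44 (4.55%), in 2 of the 258 (0.775%) and in 0.307% of all bright genes. SERPINH1, a collagen chaperone of the endoplasmic reticulum, read 949 on the control array, 3779 after 42 °C and 1685 after 44 °C. The kappaB element was present in 16.3% of the bright higher, 13.6% of the bright lower and 13.1% of all bright genes. The cAMP response element TGACGTCA was present in 3 of the 258 higher genes (1.16%) and 0 of the 44 lower ones against 3.52% of all bright genes, and the serum response element in 1 and 0 against 1.04%. These matches describe the letters of the window and not the binding of a factor.

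Shown here, because they hold the element in genes that were lower at 44 °C, are the 200 bases before the start of 4 of them, 5' to 3', in lower case with every match to the facing pair in capitals. HSPA6 (chr1:161524340-161524539, plus strand) holds 3 matches, some overlapping, SERPINH1 (chr11:75562053-75562252, plus strand) 2, and HSPB1 (chr7:76302473-76302672, plus strand) and ZFAND2A (chr7:1160197-1160396, minus strand) 1 each.
HSPA6: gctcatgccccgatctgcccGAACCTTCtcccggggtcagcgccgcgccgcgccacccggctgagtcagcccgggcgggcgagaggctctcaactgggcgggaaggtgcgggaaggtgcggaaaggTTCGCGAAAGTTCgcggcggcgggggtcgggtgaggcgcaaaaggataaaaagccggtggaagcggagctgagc
SERPINH1: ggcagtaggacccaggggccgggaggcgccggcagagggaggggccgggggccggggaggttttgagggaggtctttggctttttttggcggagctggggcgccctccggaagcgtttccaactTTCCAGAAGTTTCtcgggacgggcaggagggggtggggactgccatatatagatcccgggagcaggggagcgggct
HSPB1: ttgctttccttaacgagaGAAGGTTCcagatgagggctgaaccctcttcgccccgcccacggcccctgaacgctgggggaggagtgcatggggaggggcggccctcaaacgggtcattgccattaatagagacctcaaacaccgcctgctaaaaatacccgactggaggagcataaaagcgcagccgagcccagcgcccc
ZFAND2A: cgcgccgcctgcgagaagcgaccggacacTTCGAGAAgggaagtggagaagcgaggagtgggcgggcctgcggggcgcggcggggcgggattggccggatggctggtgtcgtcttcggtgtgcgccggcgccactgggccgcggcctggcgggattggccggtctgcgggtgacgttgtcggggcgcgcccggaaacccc

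Other lower genes had no shared list. TENT5A, a noncanonical poly(A) polymerase, read 126 on the control array, 3362 after 42 °C and 1245 after 44 °C, 2.70-fold lower at 44 °C, and its other measured probe set agreed in sign. MMP3, a matrix metalloproteinase, read 73.1 on the control array, 806 after 42 °C and 85.2 after 44 °C, 9.46-fold lower. NKRF, a repressor of NF-kB promoters, read 256 on the control array, 1265 after 42 °C and 363 after 44 °C, 3.49-fold lower. In MMP3 and NKRF the 44 °C level was 0.22 and 0.50 log2 units from the control as deposited and -0.66 and -0.38, of the opposite sign, when scaled to the polyadenylated controls. In TENT5A it was above the control on both scales (3.31 and 2.42). PNLDC1, a 3' exonuclease that trims small RNAs of the germ line, read 3.71 on the control array, 319 after 42 °C and 0.989 after 44 °C, at least 14.9-fold lower, with both the control and the 44 °C array under the floor. PWWP3B was likewise above the floor only at 42 °C, with 114 units, at least 5.35-fold above 44 °C. The kinase CLK1, which phosphorylates splicing factors, read 257 on the control array, 682 after 42 °C and 265 after 44 °C and was 2.57-fold lower. It was the only call among 24 measured genes of the splicing list (0.658% of all genes were lower and 3.11% higher).

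SLC30A1, which exports zinc, read 478 on the control array, 1265 after 42 °C and 402 after 44 °C, 3.15-fold lower, or -0.60 log2 units with the mean of its probe sets. CDC42EP3, an effector of the GTPase CDC42, read 880.2 on the control array, 2475 after 42 °C and 824 after 44 °C, 3.005-fold lower with 3 of 3 other probe sets of the same sign. IER5, an immediate early gene that acts on HSF1, read 2496 on the control array, 8856 after 42 °C and 4345 after 44 °C, 2.04-fold lower. In these genes, too, the 42 °C array was the highest of the 3. CILK1, a kinase of cilia, read 175 on the control array, 290.3 after 42 °C and 83.5 after 44 °C, and its difference was -0.90 with the mean of its probe sets. VMP1, a membrane protein of autophagosome formation, read 170.3 on the control array, 62.5 after 42 °C and 21.9 after 44 °C. In both the 44 °C level was more than 2-fold below the control as well, at -1.07 and -2.96 log2 units against it. The remaining named lower genes were COL2A1 (3.68-fold), GCNA (3.62-fold), UBE2D3-AS1 (3.41-fold), SAMTOR (3.08-fold), SPTY2D1 (2.71-fold) and ARRDC4 (2.63-fold).

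Among the genes higher at 44 °C, NF-kB targets made up the list with the most calls of the 50. Of 15 measured NF-kB chemokines and cytokines, 8 were higher and 0 lower, beside 3.11% and 0.658% of all genes, and the list median was 1.55 log2 units as deposited, or 0.96 relative to all genes. Scaled to the polyadenylated controls, the median was 0.49, and TNF and IL1A were the members that still passed 2-fold. TNF, a cytokine that itself activates NF-kB, read 377 on the control array, 50.5 after 42 °C and 416 after 44 °C, 8.23-fold higher at 44 °C. IL1A, an alarm cytokine of epithelial cells, read 2859 on the control array, 424 after 42 °C and 3126 after 44 °C, 7.38-fold higher. IL1B, its secreted relative, read 2986 on the control array, 889 after 42 °C and 3536 after 44 °C, 3.98-fold higher. For these 3 cytokines the 42 °C array was the low one under each scaling. The 44 °C level was within 1.18-fold of the control as deposited, but -0.17, -0.35 and -0.23 log2 units from it after quantile normalization and -0.75, -0.76 and -0.64 when scaled to the polyadenylated controls, of the opposite sign. The list median at 44 °C against the control was 0.13, -0.24 and -0.75 on these scales, and at 42 °C -1.30, -1.10 and -0.86.

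For CXCL1, CXCL2 and CXCL3, chemokines that attract neutrophils, the 44 °C level lay between the others. CXCL2 read 745 on the control array, 73.5 after 42 °C and 272 after 44 °C, 3.71-fold higher at 44 °C than at 42 °C, or 0.69 log2 units with the mean of its probe sets. CXCL3 read 177 on the control array, 28.04 after 42 °C and 138 after 44 °C, 4.91-fold higher, and CXCL1 read 1597 on the control array, 306 after 42 °C and 1176 after 44 °C, a difference of 1.94 log2 units. CCL20 and CCL5, which attract lymphocytes, were also higher, with differences of 1.82 and 1.55. CXCL8 read 4439 on the control array, 2172 after 42 °C and 4752 after 44 °C; its difference was 1.13 as deposited, 0.63 after quantile normalization and -0.20, of the opposite sign, when scaled to the polyadenylated controls, so no direction is given.

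In the feedback arm of the pathway 42 °C was again the low array. NFKBIA, the inhibitor that holds NF-kB in the cytoplasm and is itself a target, read 2341 on the control array, 506 after 42 °C and 1892 after 44 °C, 3.74-fold higher at 44 °C, or 0.95 log2 units with the mean of its probe sets, of which the other was under the floor on both heated arrays. TNFAIP3, a deubiquitinase that ends the signal, read 2003 on the control array, 451 after 42 °C and 1566 after 44 °C, 3.47-fold higher. NFKBIZ, a nuclear regulator, read 165 on the control array, 114 after 42 °C and 548 after 44 °C, 4.81-fold higher and above the control. With NFKBIE (4.13-fold) this made 4 of 13 measured subunits and feedback regulators higher and 0 lower (3.11% and 0.658% of all genes were). The list median was 0.66 relative to all genes. None of the 4 passed 2-fold when scaled to the polyadenylated controls, where the list median was -0.09, of the opposite sign.

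FOS and FOSB, which pair with JUN to form AP-1, were below the floor in control cells. FOS read 3.86 on the control array, 129.6 after 42 °C and 471 after 44 °C, 3.63-fold higher at 44 °C, so both temperatures were above the control. FOSB read 3.90 on the control array, 6.03 after 42 °C and 141 after 44 °C and was above the floor only at 44 °C, at least 6.58-fold higher. FOSL1, a relative of FOS, read 1871 on the control array, 819.7 after 42 °C and 3316 after 44 °C, 4.05-fold higher, with 42 °C below the control. These were 3 of 8 measured FOS and JUN genes (3.11% of all genes were higher), with a list median 0.68 above that of all genes. Scaled to the polyadenylated controls the list median was -0.07, of the opposite sign. On that scale FOSB alone of the 3 kept a 2-fold difference, with FOS at 0.53 and FOSL1 at 0.69 log2 units. Of 23 EGR, KLF and other early factors, KLF6 was higher (1066 on the control array, 339 after 42 °C and 1609 after 44 °C, 4.74-fold, with 4 of 4 other probe sets of the same sign) and IER5 lower (3.11% and 0.658% of all genes were). Scaled to the polyadenylated controls, the difference of KLF6 was 0.92 log2 units, under 2-fold. EGR1 read 747 on the control array, 867 after 42 °C and 1898 after 44 °C, and its difference of 1.13 as deposited was 0.64 after quantile normalization and -0.20 scaled to the polyadenylated controls. DUSP1, a phosphatase of MAP kinases, read 213 on the control array, 1673 after 42 °C and 1285 after 44 °C, and ATF3, a stress-induced transcription factor, 76.6 on the control array, 219 after 42 °C and 334 after 44 °C; neither passed 2-fold.

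**Figure D3:**
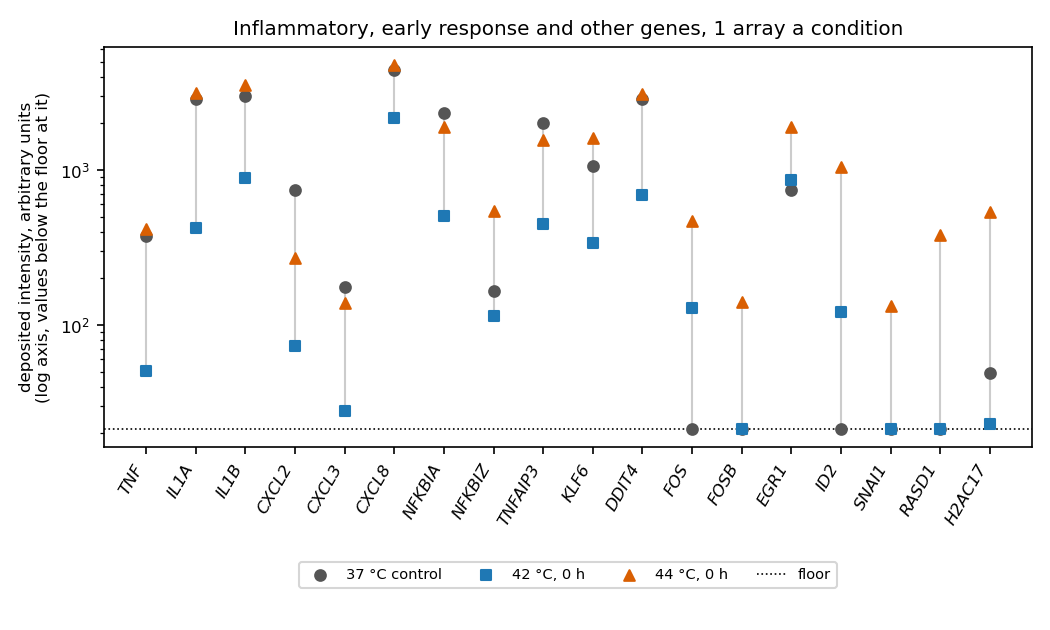
Deposited intensity in arbitrary units (log axis) of 18 named genes on the control, 42 °C and 44 °C arrays at 0 h, 1 array a condition, with values below the floor drawn at it (dotted line). From TNF to DDIT4 the 42 °C point is the lowest, and for FOSB, SNAI1 and RASD1 only the 44 °C point is above the floor; scaled to the polyadenylated controls, CXCL8 and EGR1 changed sign.

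Some of the largest differences were in genes of low intensity at 42 °C. H2AC17, a replication-dependent histone H2A gene, read 49.1 on the control array, 23.0 after 42 °C and 534 after 44 °C, 23.2-fold higher at 44 °C. RASD1, a small GTPase induced by dexamethasone, read 10.4 on the control array, 18.04 after 42 °C and 384 after 44 °C, at least 17.96-fold higher. ID2, which blocks basic helix-loop-helix transcription factors, read 4.46 on the control array, 121 after 42 °C and 1054 after 44 °C, 8.69-fold higher, and its other measured probe set had the same sign. SNAI1, a repressor of E-cadherin, read 2.92 on the control array, 8.62 after 42 °C and 133 after 44 °C, at least 6.21-fold higher. All 4 were at least 2-fold higher on the scale of the polyadenylated controls too. ID2 was the only call among 4 measured ID genes, whose median was -0.02 relative to all genes. RASD1 was the only one among 6 stress-induced small GTPases (-0.61). Among 16 invasion and mesenchymal genes (0.14), SNAI1 and PLAU were higher and MMP3 lower. Of all genes 3.11% were higher and 0.658% lower. PTPRO, a receptor tyrosine phosphatase, was already bright in the control (1097 on the control array, 1453 after 42 °C and 8406 after 44 °C) and was 5.78-fold higher, from 1 probe set, as its others were under the floor; with the mean of all it was 0.84 log2 units.

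CDKN1C, an inhibitor of cyclin-dependent kinases, was at least 6.44-fold higher by the probe set that represents it (16.8 on the control array, 13.6 after 42 °C and 138 after 44 °C), or 1.20 log2 units with the mean of its probe sets, of which 1 other was above the floor in the control and 1 other at 42 °C. LASP1NB, by its representing probe set, was above the floor only at 44 °C (136 units, at least 6.38-fold), or 1.34 log2 units with the mean of its probe sets. IER5L read 92.9 on the control array, 104 after 42 °C and 639 after 44 °C, 6.14-fold higher, and NDUFV2-AS1 28.5 on the control array, 22.0 after 42 °C and 164 after 44 °C, 7.47-fold higher. NDUFV2-AS1 and UBE2D3-AS1 are antisense genes as the array annotation names them, and the strand of their probes was not checked. A different order held for ANKZF1, RELT, RAX2 and ULK1, a kinase that starts autophagy. They were above the floor in the control and at 44 °C but not at 42 °C, with 44 °C higher than 42 °C by at least 6.52-fold, at least 6.58-fold, at least 6.02-fold and at least 3.78-fold.

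Replication-dependent histone genes lie in clusters and their transcripts normally lack a poly(A) tail. On the list drawn up for them, H2AC8 (73.4 on the control array, 62.2 after 42 °C and 223 after 44 °C) and H2BC21 (50.7 on the control array, 38.1 after 42 °C and 149 after 44 °C) were higher, 2 of 11 measured, with 0 lower; neither of them kept a 2-fold difference on the scale of the polyadenylated controls. Over all 41 measured genes of these names, a list formed after their values were seen, 10 were higher and 0 lower (3.11% and 0.658% of all genes), H2AC17 and H2AC8 among them. On the scale of the polyadenylated controls 4 of the 10 passed, where 0.52% of all genes did. The one-cycle labelling primes from poly(A), and which form of the histone transcripts these probe sets measured was not tested.

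Some members of other lists were also higher, with 42 °C as the low array. DDIT4, an inhibitor of mTORC1, read 2875 on the control array, 689 after 42 °C and 3085 after 44 °C, 4.48-fold higher at 44 °C. GADD45A, a growth arrest gene, read 3143 on the control array, 1153 after 42 °C and 3483 after 44 °C, 3.02-fold higher. ADM, a vasodilator peptide induced by hypoxia, read 5037 on the control array, 1691 after 42 °C and 5997 after 44 °C, 3.55-fold higher. PLAU, the urokinase that activates plasminogen, read 6074 on the control array, 2390.0 after 42 °C and 7119 after 44 °C, 2.98-fold higher. In these 4 genes the 44 °C level was within 1.19-fold of the control as deposited, and -0.78, -0.74, -0.64 and -0.66 log2 units from it when scaled to the polyadenylated controls, below it. The DNA repair gene XPC (3.50-fold), the p53-induced nuclease AEN (3.604-fold), the interferon regulator IRF1 (4.12-fold) and ZBTB14 (3.57-fold) also had 42 °C as the low array. Most members of the lists of these genes were not called. DDIT4 was the only call among 16 measured genes of its list, GADD45A among 5, ADM among 17, IRF1 among 12 and ZBTB14 among 21. XPC and AEN were 2 of 16 p53 targets. PLAU shared a list of 16 with SNAI1, also higher, and MMP3, lower. Relative to all genes, the medians of these lists ranged from -0.44 (ZBTB14) to 0.75 (GADD45A). The mitotic kinase PLK1 read 353 on the control array, 251 after 42 °C and 814 after 44 °C, 3.24-fold higher. It was the only call among 19 mitosis genes, a share near that of all genes (3.11% higher). None of the genes from DDIT4 to PLK1 in this paragraph kept a 2-fold rise when scaled to the polyadenylated controls.

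Several lists of housekeeping or stress genes had no call in either direction, where 3.11% of all genes were higher and 0.658% lower. They include the 41 cytosolic ribosomal proteins, 27 proteasome subunits, 33 nuclear genes of oxidative phosphorylation, 27 of DNA replication, 23 translation initiation factors, 17 aminoacyl-tRNA synthetases, 11 NRF2 targets, 8 metallothioneins, 20 of ribosome biogenesis and 13 of cholesterol synthesis and uptake. Relative to all genes their medians ranged from -0.35 (cholesterol) to 0.25 (DNA replication). ACTB read 15845 on the control array, 16570.5 after 42 °C and 19531 after 44 °C and GAPDH 15317 on the control array, 15308 after 42 °C and 19411 after 44 °C, differences of 0.24 and 0.34 as deposited, both below the median of all genes.

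**Figure D4:**
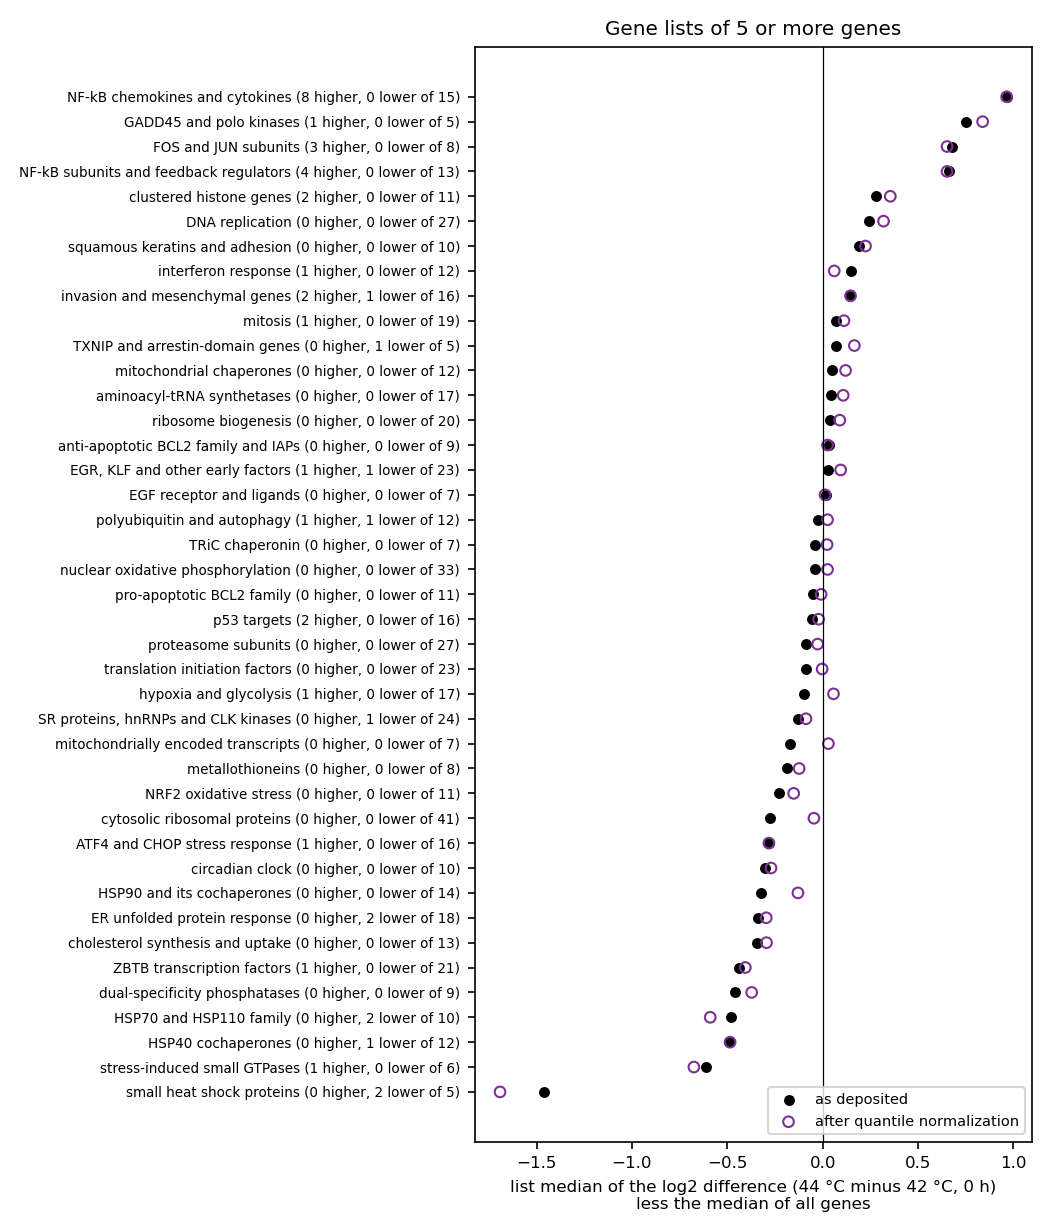
For each gene list of 5 or more measured genes (names on the y axis, with the numbers higher and lower), the x axis gives the list median of the log2 difference, 44 °C minus 42 °C at 0 h, less the median of all genes. Filled points are values as deposited and open points after quantile normalization; NF-kB chemokines and cytokines lie at 0.96 and small heat shock proteins at -1.46, and the values are relative to a median that was itself 0.58 as deposited and -0.61 when scaled to the polyadenylated controls.

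Set beside the control, which both comparisons share, the called genes lay as follows. The 430 higher genes had a median of -0.96 log2 units against the control at 42 °C and 0.86 at 44 °C as deposited, and of -0.76 and 0.47 after quantile normalization. At 42 °C, 200 of them were at least 2-fold below the control (4.89% of all genes were), and at 44 °C 173 were at least 2-fold above it (10.6% of all genes were). The 91 lower genes had medians of 1.34 at 42 °C and 0.00 at 44 °C, and 64 of them were at least 2-fold above the control at 42 °C (1.58% of all genes were). Being called between the temperatures favours such positions, so these counts describe the genes and test nothing.

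The difference varied with the length of genes and with the kind of probe set. In 5 equal bins of bright genes by the span of the gene on the genome, the median difference was 0.73, 0.70, 0.66, 0.54 and 0.44 log2 units from the shortest to the longest bin, and the share called higher was 6.13% in the shortest and 1.17% in the longest. The median span was 16976 bases in the bright higher genes, 17070 in the bright lower genes and 30614 in all bright genes with a span. By mean intensity of the arrays, the share called higher was 10.0% in bin 2 of 5, 3.65% in bin 3 and 0.470% in the brightest; in the dimmest bin, where few genes can pass the floor by 2-fold, it was 0%. Of bright probe sets that the annotation lists under no gene, 14.5% (214 of 1479) were higher at 44 °C, against 3.90% of those of a single gene and 5.03% of those that list several genes. The shares called lower were 0.879%, 0.798% and 1.68%.

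Probe sets of 1 gene did not always go together. Of the 430 higher genes, 170 had another probe set above the floor, and in 146 all of these had the same sign. Of the 91 lower genes 45 had another, and in 21 all had the same sign; judged against the median of all genes, all lay on the called side in 98 of the 170 and 31 of the 45. The arrays of 6 and 12 h entered the comparison at 0 h through the floor, the scalings and the choice of each gene's probe set. They give a further view of the called genes, though not a fully separate one. Of the 430 higher genes, 57 were higher at 44 °C than at 42 °C again at 6 h (13.3%, where 1.77% of all genes were) and 37 at 12 h (8.60%, all genes 1.81%), and 30 and 31 were lower (all genes 4.76% and 3.9%). Of the 91 lower genes, 26 were lower again at 6 h (28.6%) and 6 at 12 h (6.59%), and 5 and 10 were higher.

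**Figure D5:**
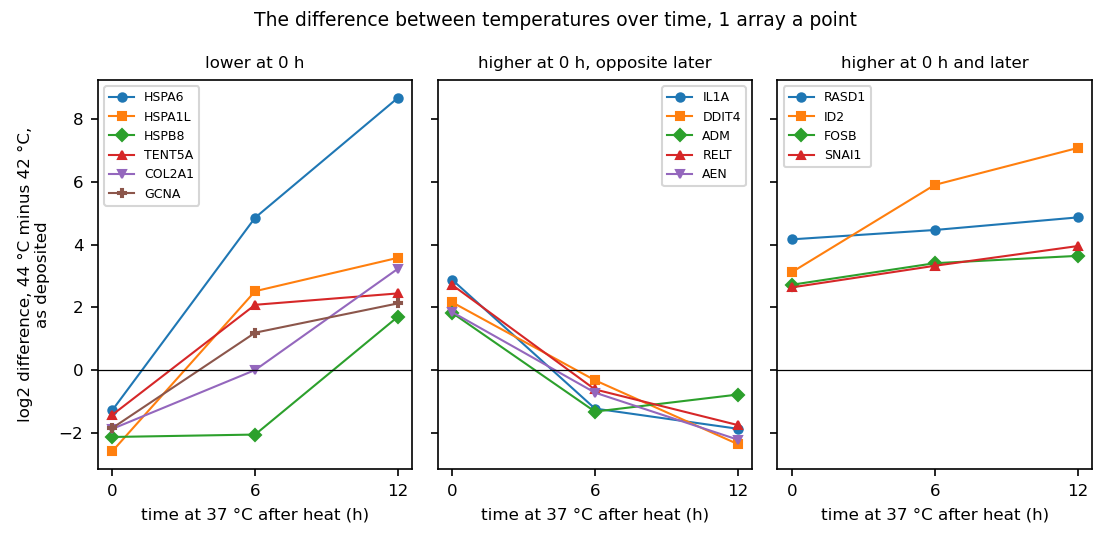
The log2 difference, 44 °C minus 42 °C as deposited (y axis), of 15 named genes at 0, 6 and 12 h after heat (x axis), 1 array a temperature and time. Genes in the left panel were lower at 0 h and higher at 12 h (HSPA6 -1.29 and 8.68), those in the middle panel were higher at 0 h and lower at 6 or 12 h (IL1A 2.88 and -1.88), and those in the right panel were higher at each time (RASD1 4.17 and 4.87). HSPA1L and HSPB8 are drawn from 1 probe set, and the other probe set of each was higher at 44 °C at each time.

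RASD1, ID2, FOSB and SNAI1 were higher at 44 °C at all 3 times. For ID2 the 42 °C arrays read 121, 50.1 and 11.1 at 0, 6 and 12 h and the 44 °C arrays 1054, 2996 and 2892. HSPA6 changed order: the 42 °C arrays read 12566, 262 and 18.9 and the 44 °C arrays 5143, 7596 and 8788. IL1A changed order the other way, with 424, 3968 and 4909.9 after 42 °C and 3126, 1691 and 1338 after 44 °C. HSPB1 kept its order, with 7209, 7115 and 6176 after 42 °C and 2664, 2052 and 3139 after 44 °C, although at 12 h its difference of -0.98 was under 2-fold.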

How the data were processed

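The values are probe set intensities deposited by the authors on a linear scale, 54675 probe sets on each of 7 arrays. Their algorithm was not given in the sources used here. Per the labels, 5 µg of total RNA was labelled by the one-cycle 3' method. Each condition has 1 array, so no test was made and the number of arrays limits the precision.

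Probe sets were named from the array annotation (41097 list 1 gene, 1801 several, 11777 are not listed), with symbols and spans from RefSeq GRCh38.p14; numbers of exons were not used. A gene takes its single-gene probe set of highest mean log2 over all arrays (19775 genes). Log2 differences were computed with numpy 2.4.6 and pandas 2.3.3 after the floor of 21.35, as deposited, after quantile normalization over all arrays, and after a shift by the median of 20902 probe sets that no array had under the floor. The steps were tested on simulated data.

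Named genes are the 15 largest differences each way among bright called genes whose other probe sets above the floor share the sign, up to 4 called members of each of 50 lists, and 25 genes chosen by name, 24 of which had a value. CXCL1, CCL5, CCL20, HSPA5, SERPINH1 and the promoter matches EOMES, IL7R, MDFIC and NTN4 lay outside this rule and were added with their values known. Members and lists were chosen with earlier results of these data known. Alternatives were another scaling, floor, choice of probe sets and brightness limit; scaling to control probe sets was added after seeing the data.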

Additional observations from a re-analysis of the deposited data

Results flagged for a closer look

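Some genes differed between the temperatures in 1 direction at 0 h and in the other direction later, each time by at least 2-fold under all 3 scalings. All values are log2 differences, 44 °C minus 42 °C, as deposited. Each is from 1 array a side, and the change between times was not tested. Among genes lower at 0 h, HSPA6 was higher at 6 h (4.86) and 12 h (8.68), as were HSPA1L (2.51 and 3.58), TENT5A (2.08 and 2.44) and GCNA (1.19 and 2.12). COL2A1 (3.23), HSPB8 (1.70) and PNLDC1 (1.14) were higher at 12 h. For HSPA1L and HSPB8 the change of order rests on 1 probe set. The other probe set of each read higher at 44 °C at 0, 6 and 12 h, so their direction at 0 h is not settled. Among genes higher at 0 h, ADM was lower at 6 h (-1.33). DDIT4 (-2.37), AEN (-2.22), IL1A (-1.88) and RELT (-1.76) were lower at 12 h.

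Control probe sets outside the gene comparison also differed at 0 h. The polyadenylated controls read more at 44 °C by a median of 1.31 log2 units, and the 5' probe set of 28S ribosomal RNA by 1.42. Both were also above the untreated control array.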

How the results depend on the processing

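No paired analysis was possible because each condition has 1 array and the labels give no replicate numbers. The count of genes at least 2-fold higher as deposited (2616) was 452 after quantile normalization, 559 after the median shift, 5891 without a floor other than 1 unit and 72 when scaled to the polyadenylated controls. The count of lower genes (91) was 470, 402, 1249 and 3227 under the same settings. It was 56 with the floor doubled, 55 with the mean of all probe sets of a gene and 56 among bright genes. Scaled to the hybridisation controls the counts were 2682 and 110. Under all 3 scalings, the 430 higher genes became 2443 without a floor, 254 with the doubled floor and 264 with the mean of probe sets. They became 72 with the polyadenylated controls as a further scaling. The 91 lower genes became 1249, 56, 55 and 91 under these settings. The last of these counts could not fall, because that scaling only moves the hotter array further down. Of the 430 and 91 genes, 236 and 50 were still called with the mean of probe sets. The number of genes tested or called follows from the floor; the cause of the other shifts was not tested.

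HSPA1L was 1.04 with the mean of its probe sets, against -2.60. When scaled to the polyadenylated controls, CXCL8 and EGR1 were each -0.20. The 64 named genes at least 2-fold apart as deposited kept their sign in 64 cases under quantile normalization, the median shift and no floor. The sign was kept in 63 with the mean of probe sets (56 of them still 2-fold) and in 62 with the polyadenylated controls. Only the mean of probe sets could reverse a gene that the rule had called, so the other counts follow largely from the choice of genes. With the mean of probe sets EGR1 was 0.99, IL1A 1.44 (from 2.88), HERPUD1 -1.003 (from -2.01) and CDC42EP3 -1.02 (from -1.59). Relative to all genes, the medians of 48 of 48 lists moved by less than the probe set scatter (0.373 log2) under quantile normalization and the median shift, and those of 47 of 48 under each of the other 3 settings. The exceptions were small heat shock proteins (-0.83 with the mean of probe sets, against -1.46), TENT5 poly(A) polymerases (-0.63 without a floor) and fibroblast markers (0.46 with the polyadenylated controls). A shift of a whole array moves a list and all genes alike. Apart from the floor, the median shift and the scaling to controls could therefore hardly change these values, and their agreement tests little. Genes under the floor on both arrays were not compared.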
